A study of Mus musculus with 292 samples.

Results

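The potassium channel genes examined here were the 68 genes whose annotated symbol begins with Kcn, out of 10836 genes named on the array. Kcnj13 was left out by the rule. One of them, Kcnmb4os1, carries the symbol of a transcript on the opposite strand of Kcnmb4 and not of a channel subunit. They fell into 12 genes of Kcna to Kcnd, 13 of Kcnj, 10 of Kcnk and 33 others. A gene with several probes was represented by the probe with the largest standard deviation (SD) over mice. This applied to Kcnma1 alone, and no other measured value entered the choice of genes. Each gene was measured in the brains of 292 mice on 292 arrays. The mice were the F2 offspring of an intercross of 2 inbred strains, C57BL/6J with C3H/HeJ, bred in both cross directions, and included females and males. All of them had eaten chow with 4% fat up to week 8 and then, for 12 weeks, a Western diet of 42% fat and 0.15% cholesterol, and fasted for 12 h before they were killed at 20 weeks. Every mouse thus carried the same diet and belonged to 1 group, F2 brain; the design holds no chow group, and the sex and the cross direction of each mouse were not given in the sources used here.

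Potassium channels let potassium ions leave the cell and thereby set the resting potential of neurons, end each action potential and control how often a neuron fires. Voltage-gated channels are built from pore subunits of the Kcna to Kcnd, Kcnh and Kcnq families, joined by modifier subunits that form no channel alone (Kcng, Kcns, Kcnv) and by accessory subunits (Kcnab, Kcnip, Kcne). Inward rectifiers (Kcnj) include the G protein-gated, ATP-sensitive and astrocytic channels, tandem-pore channels (Kcnk) carry leak current, and the Kcnma and Kcnn channels open when intracellular calcium is high.

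Each array compared 1 mouse with a common pool, made of equal portions of all samples' RNA, and a value was read as log10 of mouse over pool. The labels state neither base nor direction, so this reading is likely but not certain. A correlation between genes or a number of levels does not depend on it. A fold and a count that uses a minimum fold depend on the base, and a direction against the pool depends on the direction. A ratio to a pool gives no level of a gene, so neither the levels of different channels nor the tissue label could be checked from these values. The arrays split into 3 sets by the probes that they lack, called batches A (74 arrays), B (77) and C (141). All mice of batch C carried higher mouse numbers than those of A and B. A difference that comes from the arrays of batch C thus cannot be told apart from one that comes from its mice. Eif2s3y, which lies on the Y chromosome, had a median of -1.65 over the arrays of batch A, 0.281 over batch B and -0.0631 over batch C. The part of sex in differences between batches was not tested. Values were centred within batches before mice were correlated. Across all probes the arrays of mice 102, 216, 229 and 349 were the widest, with an SD of at least 0.127 against 0.112 for the next array and a median of 0.0677.

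Most potassium channel genes varied little from brain to brain. The SD over 292 mice had a median of 0.0538 over the 68 genes, which is a 1.13-fold deviation, and a median of 0.0495 over all 23549 probes. It lay above that all-probe median in 42 genes, 61.8% of the 68. The medians of the groups were close, at 0.0517 for Kcna to Kcnd, 0.0577 for Kcnj, 0.0549 for Kcnk and 0.0540 for the others. Only Kcne1, Kcnip4 and Kcnn4 exceeded the SD of 0.115 that marks the widest 5% of probes. At the other end stood Kcnj1 with an SD of 0.0192, Kcnd1 with 0.0200, Kcnj15 with 0.0237, Kcnq3 with 0.0262 and Kcna3 with 0.0277. Kcnj1, the kidney's secretory potassium channel, ranged from -0.0804 to 0.0514 with a median of -0.00593.

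**Figure D1:**
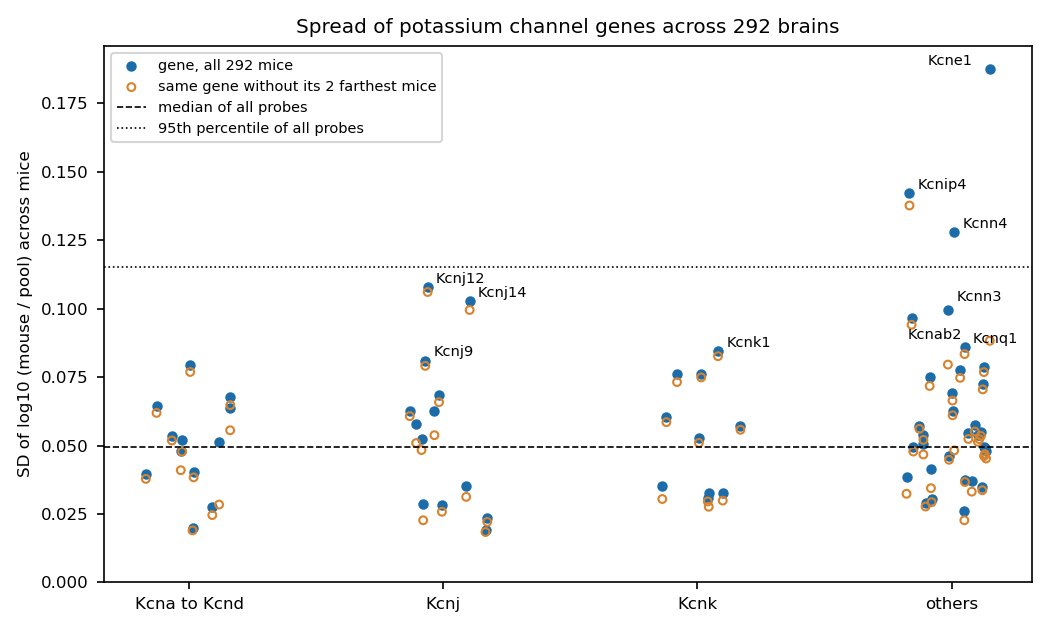
Each filled point is the SD of 1 potassium channel gene over all 292 mice (vertical axis, log10 of mouse over pool), placed by gene group on the horizontal axis, and the open point at the same place is the SD without the 2 mice farthest from the gene's median. Kcne1 and Kcnn4 drop to 0.0883 and 0.0482 without those 2 mice, while Kcnip4 stays at 0.138; the dashed line is the all-probe median of 0.0495 and the dotted line the 95th percentile of 0.115.

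For some genes the spread came from very few mice. Kcne1, an accessory subunit best known from the heart and inner ear, had a median of 0.0047 and ran from -2 in mouse 269 to 2 in mouse 310, both of batch C and both at the limits of the deposited values. Its SD was 0.188 over all mice and 0.0883 without those 2. Kcnn4, a calcium-activated channel of red blood cells, lymphocytes and microglia, had a median of 0.000384, a lowest value of -0.186 and a highest of 2, reached in mouse 216. Its SD was 0.128 over all mice and 0.0449 without the 4 widest arrays, which include mouse 216. Kcnd3, a pore subunit of the fast transient A-type current, was the only other gene whose SD dropped by over 1.5 times without its 2 farthest mice, to 0.0285, against 0.0514 over all mice. Its extremes were -0.6 in mouse 229 and 0.416 in mouse 255. Kcnn3, a small-conductance channel behind the pause after a spike, ran from -0.592 to 0.837 around a median of -0.00692; those extremes came from the widest arrays of mice 349 and 229, and its SD was 0.0996 with all arrays and 0.0789 without the 4 widest.

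Among the 12 pore genes of Kcna to Kcnd, the spread was largest in Kcna5, Kcnd2, Kcna7 and Kcna10. Kcna5, a delayed rectifier, ran from -0.222 through a median of -0.0338 to 0.226, and the mouse at the 95th percentile stood 1.85-fold above that at the 5th. Kcnd2, which carries the A-type current in the dendrites of hippocampal neurons, ran from -0.27 through 0.00962 to 0.22. Kcna7 ran from -0.17 through -0.0281 to 0.213, and Kcna10 from -0.266 through 0.00479 to 0.386. The remaining 8 genes had SDs between 0.0200 (Kcnd1) and 0.0535 (Kcna1, an axonal channel that flanks the nodes of Ranvier). Kcnc1, the fast-closing channel of fast-spiking neurons, lay inside that range at 0.0520.

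Among the inward rectifiers the largest SDs were those of Kcnj12 and Kcnj14, both strong rectifiers that hold the resting potential. Kcnj12 ran from -0.33 through -0.0619 to 0.19, and its 95th percentile stood 2.2-fold above its 5th. Kcnj14 ran from -0.399 through -0.0481 to 0.159, a 2.11-fold span between the same percentiles. Neither rested on single mice, since their SDs of 0.108 and 0.103 became 0.106 and 0.0995 without the 2 farthest mice. Batch accounted for 22% and 43.1% of their variance, and their SDs within batches were 0.0958 and 0.0777, against 0.0789 for Kcnj9. Kcnj9, a subunit of the G protein-gated channels through which transmitters slow neurons, ran from -0.253 through -0.0151 to 0.178. The ATP-sensitive pore gene Kcnj11, known from insulin-secreting cells and neurons, had an SD of 0.0684, and its relative Kcnj8, known from vascular muscle, had 0.0626. Kcnj10, which takes up potassium in astrocytes, had an SD of 0.0353, at percentile 22.2 of all probes.

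For Kcnj9, Kcnj12 and Kcnk1, most of the genes with the most similar pattern over mice lay on the gene's own chromosome. These 3 genes were picked after their values were seen. Of the 20 named genes with the largest absolute correlation, 15 were on chromosome 1 for Kcnj9, which holds 5.67% of named genes. For Kcnj12 the number was 14 on chromosome 11 (8.24% of named genes), and for Kcnk1 it was 13 on chromosome 8 (4.93%). Among all 10834 named genes placed on a chromosome, 3.3% had 13 or more of their 20 on their own chromosome. With 3 of the 67 placed potassium channel genes at 13 or more, the set looked like the rest of the array, where the median count was 1. Over these 67 genes the median was also 1, and 27 genes had none. A count of 5 or more was found in 5 of the 67, against 7.39% of named genes. The next highest after the 3 were Kcnn1 with 6 and Kcnc1 with 5.

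The stretches of 250 bases before the annotated start of these 3 genes are shown because they are the channels whose pattern went with their chromosomal surroundings. The sequences are RefSeq's for build GRCm38.p6, which is the C57BL/6J genome, so they show 1 parent of the cross, and they are written 5′ to 3′ on the strand of the gene. Capitals mark matches to the letters of a TATA box (TATAAA) or a CCAAT box (CCAAT). They were searched on both strands together with those of the GC box (GGGCGG) and the cyclic AMP response element (TGACGTCA).
Kcnj9, chr1:172329323-172329572, minus strand: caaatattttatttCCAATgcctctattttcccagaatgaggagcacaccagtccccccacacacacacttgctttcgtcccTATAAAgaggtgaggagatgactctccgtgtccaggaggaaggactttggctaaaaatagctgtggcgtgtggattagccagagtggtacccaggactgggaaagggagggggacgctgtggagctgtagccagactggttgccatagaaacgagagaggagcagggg
Kcnj12, chr11:61065554-61065803, plus strand: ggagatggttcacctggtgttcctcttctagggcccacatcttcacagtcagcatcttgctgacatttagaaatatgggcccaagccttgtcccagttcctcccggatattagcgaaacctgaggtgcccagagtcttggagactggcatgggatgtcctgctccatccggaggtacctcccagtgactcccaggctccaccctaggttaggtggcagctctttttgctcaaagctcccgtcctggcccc
Kcnk1, chr8:125994852-125995101, plus strand: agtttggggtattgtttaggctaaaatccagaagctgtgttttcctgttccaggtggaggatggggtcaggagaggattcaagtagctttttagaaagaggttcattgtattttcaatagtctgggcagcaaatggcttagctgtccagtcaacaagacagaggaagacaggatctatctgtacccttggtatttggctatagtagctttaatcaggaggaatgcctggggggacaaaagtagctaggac

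Kcnj9 held 1 match to the letters TATAAA, 168 bases before its start, and 1 to CCAAT, 236 bases before it. Whether either works as a promoter element was not tested. None of the 4 sets of letters occurred in the windows of Kcnj12 and Kcnk1. Over 32851 RefSeq windows of the same length, 12.4% held TATAAA, 33.8% CCAAT, 32.7% GGGCGG and 1.55% TGACGTCA. Of the 49 potassium channel genes with a window, 1 held TATAAA, 15 held CCAAT, 32 held GGGCGG and none held TGACGTCA.

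The 3 genes followed their chromosomal partners in different shapes. The gene most like Kcnj9 was Nuf2, a part of the kinetochore, whose ratios fell into 3 levels. Kcnj9 had a median of 0.0634 in the 77 mice at the lowest Nuf2 level, -0.0242 in the 160 mice at the middle level and -0.12 in the 55 mice at the highest, so it stepped down as Nuf2 stepped up. Within the 3 levels the correlation was only -0.295, -0.307 and -0.143. Next came Ppox, a haem synthesis enzyme, with r of -0.716 (Spearman rho -0.715), and the interferon-induced gene Ifi202b with 0.698 (rho 0.646). Kcnj12 followed Rasd1, a small G protein gene, with r of 0.73 (rho 0.743) and values of 0.785, 0.658 and 0.744 within batches A, B and C. Its next partner was Omg, a myelin protein gene with 2 levels: Kcnj12 had a median of 0.0843 in the 35 mice at the low Omg level and -0.0756 in the other 257. Within these 2 levels r was -0.0479 and -0.628. The medians by Omg and Nuf2 level were taken without centring within batches, and the part of batch in them was not tested. Kcnk1 followed Galnt2, a sugar transferase gene, with r of 0.693 (rho 0.635), at 0.793, 0.851 and 0.32 in the 3 batches. Its partner Pard3, a cell polarity gene with r of 0.665 (rho 0.645), is also its next measured neighbour in chromosome order. These partners were ranked by the correlation itself, so it carries no test here. Without the 2 farthest mice r was -0.712 for Ppox, 0.695 for Ifi202b, 0.728 for Rasd1, 0.686 for Galnt2 and 0.656 for Pard3.

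**Figure D2:**
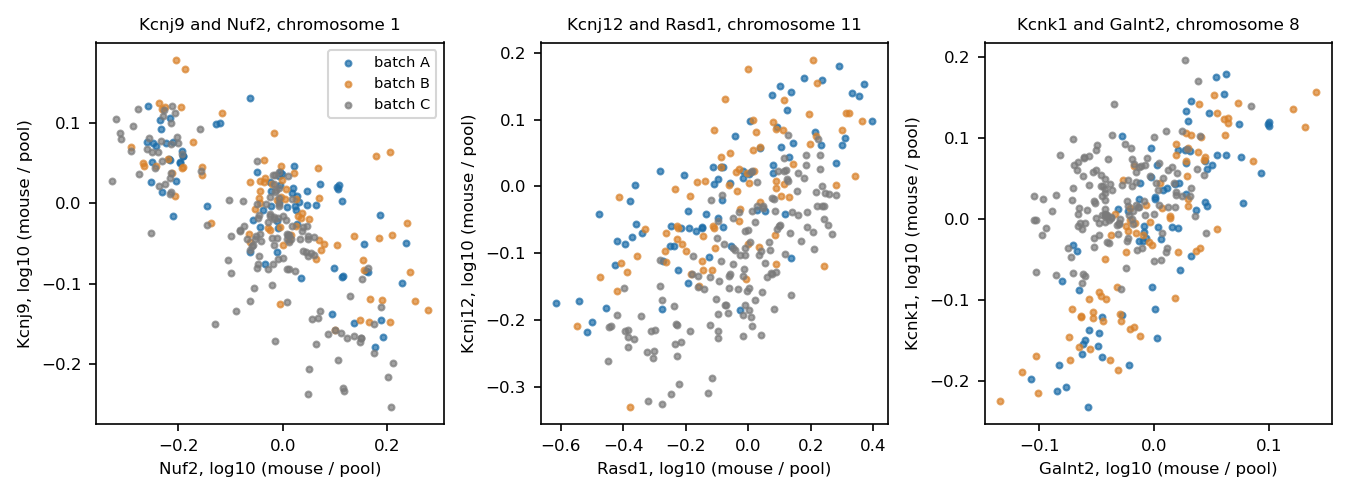
Each point is 1 mouse, coloured by batch; the vertical axes give the log10 ratio of mouse over pool of Kcnj9, Kcnj12 and Kcnk1, and the horizontal axes that of the gene most like it (Nuf2, Rasd1 and Galnt2). Nuf2 forms 3 clouds of 77, 160 and 55 mice and Kcnj9 is lower in each further cloud, Kcnj12 increases evenly with Rasd1, and Kcnk1 follows Galnt2 with r of 0.793 in batch A, 0.851 in B and 0.32 in C.

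Among the 10 tandem-pore genes, Kcnk1, Kcnk13, Kcnk7 and Kcnk3 varied most. Kcnk1 ran from -0.231 through 0.0145 to 0.196, and batches A, B and C gave it SDs of 0.106, 0.104 and 0.0494. Kcnk13, a leak channel of microglia, ran from -0.233 through -0.0347 to 0.121, and Kcnk7, which is not known to pass current alone, from -0.291 through 0.00885 to 0.187. Kcnk3, an acid-sensitive leak channel, ran from -0.161 through -0.018 to 0.188. Its close relative Kcnk9 was among the quieter genes, with an SD of 0.0308, and the mechanically gated Kcnk4 and Kcnk2 had 0.0328 and 0.0526.

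Among the other 33 genes the largest SDs were those of Kcne1, Kcnip4, Kcnn4, Kcnn3 and Kcnab2. Kcnip4, a calcium-binding partner of the Kcnd channels, ran from -0.484 through 0.0523 to 0.347, and its 95th percentile stood 2.94-fold above its 5th, the widest such span of the 68 genes. Kcnab2, a cytoplasmic beta subunit of the Kcna channels, ran from -0.251 through -0.0853 to 0.232, a 2.09-fold span. The beta subunits Kcnab3 and Kcnab1 had SDs of 0.0776 and 0.0749. Kcnq1, a voltage-gated pore gene known from heart and epithelia, ran from -0.27 through 0.0135 to 0.195. The pore gene of the large-conductance calcium-activated channel, Kcnma1, had an SD of 0.0491, and its neuronal accessory subunit Kcnmb4 had 0.0537.

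Only 3 genes, Kcnip4, Kcnab2 and Kcna7, fell into discrete levels, against 6.57% of all probes. A gene was called where a mixture of Gaussians fitted better than 1 Gaussian by over 10 units of the Bayesian information criterion, with levels over 3 SDs apart and at least 5% of mice in each. Kcnip4 had a low level at -0.221 with 59 mice and a high level at 0.0748 with 233, a 1.98-fold step. All of the low mice were in batches A and B, where they made up 39.2% and 39% of mice, against 0 of 141 mice in batch C, which allows a share of up to 2.13%. Kcnab2 showed the reverse, with its 68 high mice (level 0.0812) at 44.6% of batch A, 45.5% of batch B and 0 of 141 in batch C, and its 224 low mice at -0.106. Kcna7 had 268 mice at -0.032 and 24 at 0.117, and its 24 high mice divided into 12 of A, 11 of B and 1 of C.

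**Figure D3:**
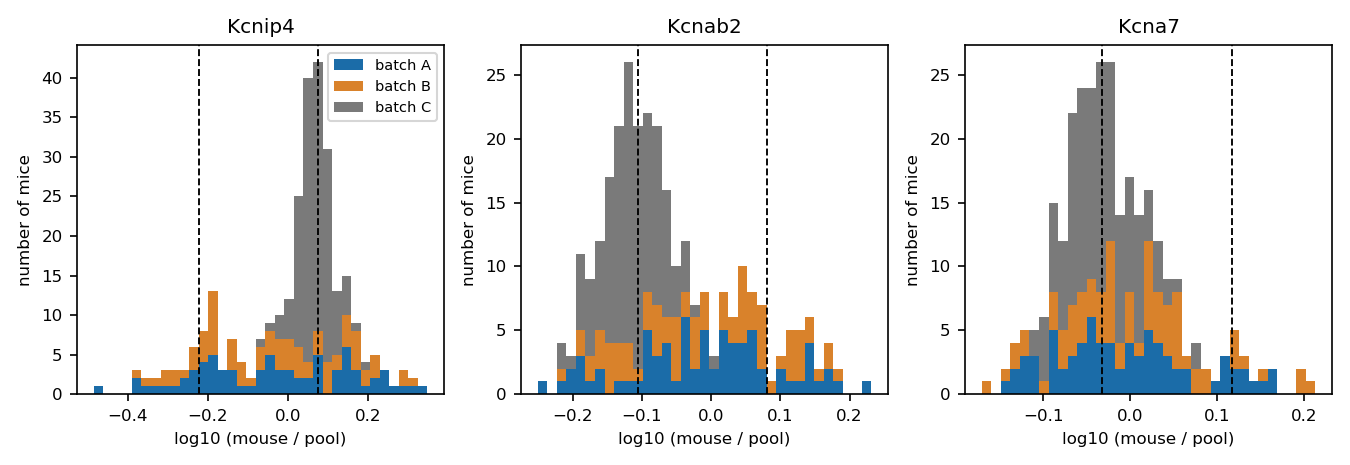
Stacked histograms of the log10 ratio of mouse over pool (horizontal axis) for Kcnip4, Kcnab2 and Kcna7, with the number of mice on the vertical axis, colours for the 3 batches and dashed lines at the 2 levels of each gene. Batch C forms 1 narrow peak in each panel, while batches A and B spread over both levels.

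The calls of levels depended on the batches and on the distance asked for. With values centred within batches 1 gene was called, with 2 SDs between levels 11 and with 4 SDs none. The gene still called after centring was Kcnip4, then with 3 levels and not the 2 levels described above. Within single batches none of the 3 genes was called: batch C alone gave Kcnc4 and Kcnk12, batch B alone Kcnd1 and batch A alone none. With unequal variances Kcnk1 was called in their place, and with arrays scaled to equal spread Kcnip4 lost its call. Kcnc4, Kcnk12, Kcnd1 and Kcnk1 are named here after their values were seen.

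The narrow batch C was shared by other potassium channel genes. In 14 of 68 genes the SD in both A and B was at least 1.5 times that in C, against 11.3% of all probes, and in 4 genes the SD in C was that much larger, against 3.72%. The 14 were Kcna5, Kcna7, Kcnab2, Kcnab3, Kcnb2, Kcng2, Kcnh3, Kcnip4, Kcnj3, Kcnk1, Kcnk12, Kcnk3, Kcnma1 and Kcnn1. Kcnip4 had SDs of 0.192, 0.173 and 0.0389 in batches A, B and C. The G protein-gated pore gene Kcnj3 had 0.0569, 0.0723 and 0.0311. The 4 genes wider in C were Kcne1, Kcnn4 and Kcnd3, whose extremes came from the few mice described above, and Kcnj14, with 0.0564 in A, 0.0605 in B and 0.0939 in C.

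Batch means differed by at least 1.2-fold in 6 potassium channel genes (limma F-test, adjusted p under 0.05), against 8.17% of all probes. The largest shift was that of Kcnj14, whose batch means were -0.0135 (A), 0.00892 (B) and -0.136 (C), a 1.395-fold difference (adjusted p = 5.63e-35). Batch accounted for 43.1% of its variance. Kcnk13 had batch means of 0.0154, -0.0172 and -0.0892 (1.27-fold), Kcnab2 -0.0105, -0.0133 and -0.115 (1.27-fold), Kcnj12 -0.0108, -0.0165 and -0.115 (1.27-fold) and Kcnip4 -0.031, -0.033 and 0.0668 (1.26-fold). The sixth gene was Kcnh1, a voltage-gated channel gene of the ether-a-go-go family, at 1.2-fold. In 5 of the 6 batch C stood lowest and in Kcnip4 it stood highest. Without the fold minimum 44 genes differed between batches, against 64% of probes.

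No potassium channel gene stood at least 1.2-fold away from the pool, against 0.586% of all probes. This count of 0 comes from limma; 44 genes had an unadjusted p under 0.05, against 70.7% of probes. After adjustment and with no fold minimum, 11 genes were above the pool and 30 below it, against 36.9% and 31.5% of probes. With the ratio turned, the 11 would be below the pool and the 30 above it. In batch C alone 5 genes passed the fold minimum, against 6.96% of probes. All 5 were below the pool: Kcnj14 at 1.37-fold, Kcnab2 and Kcnj12 at 1.3-fold, Kcnk13 at 1.23-fold and Kcnh1 at 1.22-fold.

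Each gene was then set against 11 marker scores, which are the mean standardised values of listed marker genes of neural activity, brain regions and cell types. A gene was called where its slope on the score, fitted with batch as a covariate in limma across 23549 probes, had an adjusted p under 0.05 and where its absolute r was at least 0.3. Of the 68 genes 32 were called with at least 1 score, against 52.1% of all probes. By group they were 3 of 12 for Kcna to Kcnd, 2 of 13 for Kcnj, 7 of 10 for Kcnk and 20 of 33 for the others. Kcng2, Kcnh3, Kcnj4 and Kcnk3 were each called with 4 scores. In whole brain, fewer cells of a type and less RNA per cell cannot be told apart, and the region included in each dissection is not known. Every called slope of a potassium channel gene had an adjusted p of at most 3.7e-06. Permutation tests were run on the slopes given with rho or within levels, and each p for r and for rho was at most 8e-05, where 1e-05 is the smallest that 100000 permutations can give. Differences in r between batches were not tested.

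**Figure D4:**
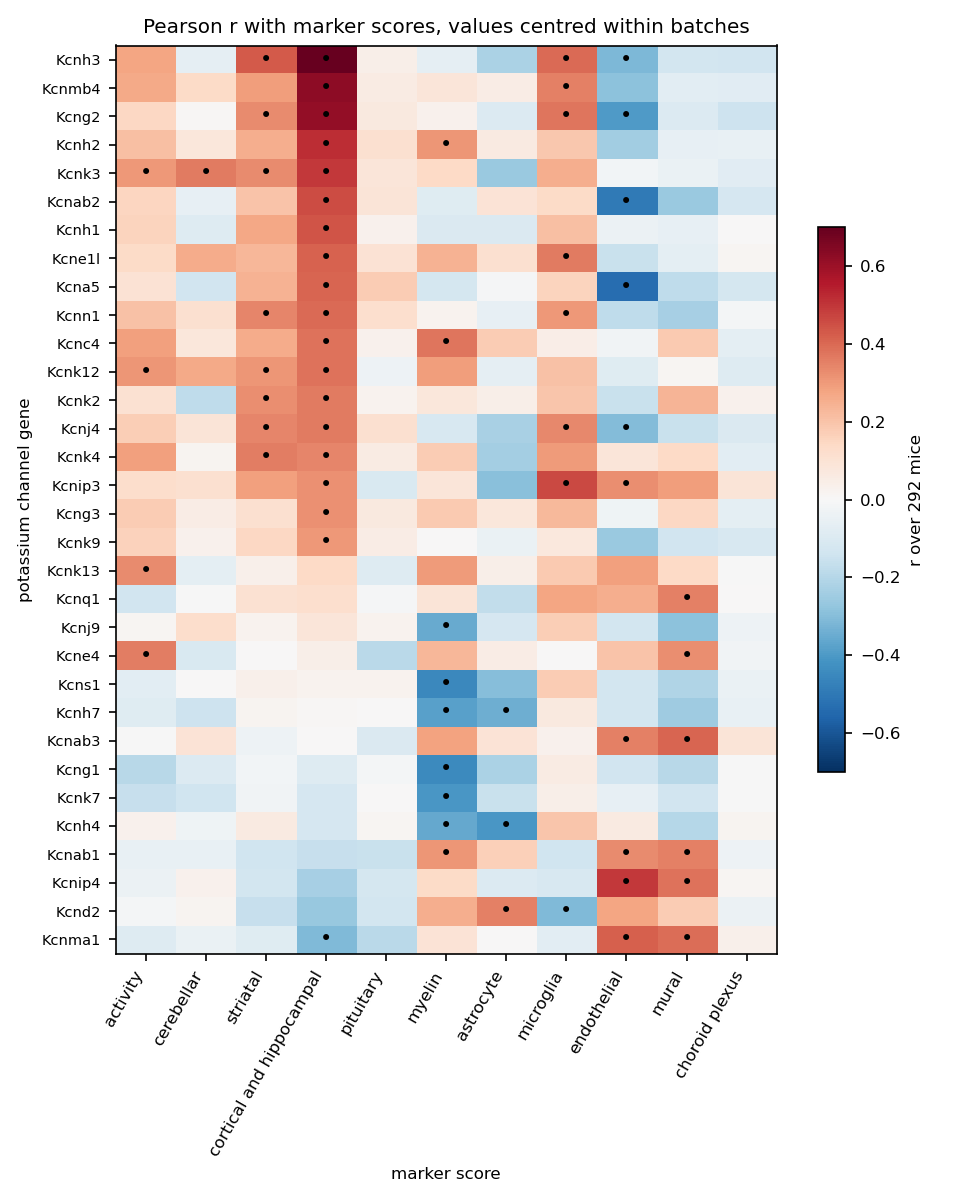
Heat map of Pearson r over 292 mice, centred within batches, between the 32 called potassium channel genes (rows) and the 11 marker scores (columns), red for positive and blue for negative r, with a dot where the gene was called. The cortical and hippocampal column is the reddest, with 18 positive dots and 1 negative, and the pituitary and choroid plexus columns hold no dot.

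The score of cortical and hippocampal neurons gathered the most potassium channel genes, 18 with positive r (12.9% of all probes) and 1 with negative r (11.3%). Kcnh3, a forebrain channel gene of the ether-a-go-go family, ran from -0.157 through -0.0449 to 0.171 and had the closest relation, with r of 0.695 and rho of 0.669. Within batches A, B and C its r was 0.745, 0.766 and 0.516. Kcnmb4 ran from -0.166 through -0.0373 to 0.124 and had r of 0.629 (rho 0.611; 0.695, 0.741 and 0.405 within batches). Kcng2, a modifier subunit that forms no channel alone, ran from -0.144 through -0.0259 to 0.183 and had r of 0.614 (rho 0.559; 0.686, 0.761 and 0.277). Kcnh2, best known for ending the heart's action potential, ran from -0.115 through -0.0258 to 0.164 and had r of 0.516 (rho 0.496), and in batch C its r was 0.106 against 0.686 and 0.731 in A and B. Without the 2 mice at the extremes of the score, these 4 values of r were 0.68, 0.631, 0.607 and 0.525. Kcnma1 was the exception, with r of -0.31 (rho -0.277) over all mice and -0.0662 in batch C.

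The 14 further genes with positive r ran from Kcnk9 at 0.301 to Kcnk3 at 0.494, and they included 5 tandem-pore genes in all (Kcnk2, Kcnk3, Kcnk4, Kcnk9 and Kcnk12). Only Kcnj4, a rectifier of forebrain neurons, stood for the inward rectifiers, with r of 0.362, and Kcna5 and Kcnc4 for the Kcna to Kcnd genes, with 0.407 and 0.379. This score rests on 6 of 10 listed markers (Tbr1, Neurod2, Neurod6, Wfs1, Cux2 and Emx1), whose median r among themselves was 0.086. Its SD was 0.619 in batch A, 0.646 in B and 0.393 in C.

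The activity score, built from early-response genes such as Fos and Arc, was followed by 4 genes, all positive (1.78% of all probes), and by none with negative r (1.27%). Kcne4, an accessory subunit, ran from -0.238 through -0.0227 to 0.253 and had r of 0.359 (rho 0.349), with 0.577, 0.34 and 0.235 within batches A, B and C. Kcnk13 had r of 0.331 (rho 0.329), with 0.103 in batch A, 0.292 in B and 0.44 in C. Kcnk12, a relative of Kcnk13, had r of 0.309 (rho 0.236), and Kcnk3 had 0.306 (rho 0.259). Without the 2 farthest mice Kcnk12 stood at 0.292. The 11 measured activity markers moved together, with a median r of 0.401 among themselves. The activity and the cortical scores had r of 0.403 with each other, and Kcnk12 and Kcnk3 were called with both. In slopes of ranks taken within batches, which weigh batch C most because it holds the most arrays, only Kcnk13 passed. Kcne4 had 0.258 there, Kcnk3 0.211 and Kcnk12 0.175. With arrays scaled to equal spread Kcnk12 and Kcnk3 did not pass.

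The striatal score was followed by 8 genes with positive r (5.1% of all probes) and none with negative r (4.43%). They were Kcnh3 with r of 0.431 (rho 0.4), Kcnk4 with 0.359 (rho 0.333), Kcnj4 with 0.341 (rho 0.342), Kcnn1 with 0.339 (rho 0.377) and, between 0.309 and 0.333, Kcnk3, Kcng2, Kcnk2 and Kcnk12. Kcnn1, a small-conductance calcium-activated channel, ran from -0.237 through -0.0332 to 0.189. The r of these first 4 genes was positive in each batch, from 0.251 for Kcnn1 in batch B to 0.492 for Kcnh3 in batch A. All 8 were also called with the cortical and hippocampal score, and the striatal and cortical scores had r of 0.386 with each other. The 8 measured striatal markers had a median r of 0.107 among themselves. Of these, 7 ran with the mean of the others, and the lowest r was -0.126. The cerebellar score was followed by Kcnk3 alone (0.9% of all probes positive, 0.034% negative), with r of 0.364 and rho of 0.507. The SD of the cerebellar score was 1.01 in batch A, 0.996 in B and 0.291 in C, and within these batches the r of Kcnk3 was 0.421, 0.37 and 0.29.

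The myelin score was followed by 3 genes with positive r (6.34% of all probes) and 6 with negative r (6.83%). Kcnc4, a fast voltage-gated channel, ran from -0.113 through -0.0104 to 0.147 and had r of 0.374 (rho 0.353). Kcnh2 and Kcnab1 both had r of 0.308, with rho of 0.254 and 0.3. For Kcnab1 r was -0.00803 with the first principal component as a covariate, and it did not pass without the batch term, with arrays scaled to equal spread or by ranks. On the negative side stood modifier subunits of neurons, Kcns1 with r of -0.449 (rho -0.45) and Kcng1 with -0.444 (rho -0.426), followed by Kcnk7 with -0.409 (rho -0.395), Kcnh7 with -0.38 (rho -0.382), Kcnh4 with -0.36 and Kcnj9 with -0.352. Kcns1 ran from -0.11 through 0.00522 to 0.185, and Kcng1 from -0.11 through 0.0121 to 0.153. Their r kept its sign in every batch, from -0.404 to -0.579 for Kcns1 and from -0.352 to -0.532 for Kcng1. The myelin markers had a median r of 0.117 among themselves.

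The microglia score was followed by 7 genes with positive r (6.34% of all probes) and 1 with negative r (5.7%). Kcnip3, a calcium sensor that binds Kcnd channels and also acts in the nucleus, ran from -0.206 through -0.0283 to 0.13 and had r of 0.462 (rho 0.421), with 0.368, 0.494 and 0.521 within batches A, B and C. Kcnh3 had 0.396 (rho 0.367), Kcng2 0.376 (rho 0.316) and Kcne1l 0.362 (rho 0.335), and Kcnd2 was the negative one at -0.309 (rho -0.299). The channels known from microglia, Kcnk13, Kcnn4 and Kcna3, were not among them. The microglia and the cortical scores had r of 0.359 with each other, and all 7 positive genes were also called with the cortical and hippocampal score. The 10 measured microglia markers had a median r of 0.185 among themselves. Of these, 9 ran with the mean of the others, and the lowest r was -0.00885. The astrocyte score was followed by Kcnd2 with r of 0.353 (rho 0.347; 3.62% of all probes positive) and, with negative r (2.44%), by Kcnh4 with -0.408 (rho -0.372) and Kcnh7 with -0.344 (rho -0.334). Its markers had a median r of 0.0194 among themselves, so the list barely moved as 1 unit. Only 8 of its 12 measured markers ran with the mean of the others, and the lowest r was -0.248. The astrocytic channel gene Kcnj10 was not called with the astrocyte score.

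The endothelial score was followed by 5 genes with positive r (8% of all probes) and 5 with negative r (7.5%), but its markers had a median r of 0.0107 among themselves. Only 6 of its 9 measured markers ran with the mean of the others, and the lowest r was -0.2375. Kcna5 had r of -0.531 (rho -0.547), with -0.679, -0.605 and -0.251 within batches A, B and C. Kcnma1 had 0.42 (rho 0.464), with 0.0557 in batch C. For genes with 2 levels r was taken within each level, from values centred within batches. The levels were fitted before centring. In the level that holds batch C, r can thus still carry an offset between batch C and the other mice. Kcnip4 had 0.181 in its 59 low mice and 0.407 in its 233 high mice, and Kcnab2 had -0.336 in its 224 low mice and -0.324 in its 68 high mice. In batch C the r of Kcnip4 was -0.0327 and that of Kcnab2 was 0.0429. Kcnab3 and Kcnab1 had 0.353 and 0.331, and Kcng2 and Kcnh3 had -0.398 and -0.314, turning to 0.0492 and 0.186 in batch C. The mural score, of pericytes and vascular muscle, was followed by 6 genes with positive r (6.56% of all probes) and none with negative r (5.56%). They were Kcnab3 with r of 0.407 (rho 0.39), Kcnma1 with 0.391 (rho 0.358), Kcnip4 with 0.326 and 0.252 within its low and high mice, Kcnab1 with 0.354 (rho 0.347), Kcnq1 with 0.35 and Kcne4 with 0.327. In batch C the r of Kcnip4 with the mural score was -0.106. The endothelial and mural scores had r of 0.469 with each other, and Kcnab1, Kcnab3, Kcnip4 and Kcnma1 were called with both. None of the 6 passed once the first principal component of the array, 12.3% of the variance within batches, was added as a covariate. The vascular muscle genes Kcnj8 and Kcnmb1 were not called with the mural score. The 8 measured mural markers had a median r of 0.16 among themselves. Of these, 7 ran with the mean of the others, and the lowest r was -0.3.

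The pituitary and choroid plexus scores were followed by no potassium channel gene in limma (0.361% and 0.17% of all probes). At an unadjusted p under 0.05 there were 15 and 11 genes, against 19.9% and 17.2% of probes. Most of their markers did move together, with a median r of 0.53 and 0.321 among themselves. Of the choroid plexus markers 6 of 7 ran with the mean of the others, and the lowest r was -0.168. The pituitary score itself fell into 2 levels, with 71.2% of mice in the lower one.

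Other genes of potassium handling, such as channel partners, scaffolds, pumps and cotransporters, were taken from a list of 26, of which 17 were measured. With the cortical and hippocampal score 5 were called with positive r (12.9% of all probes) and 5 with negative r (11.3%), the most calls with any of the 11 scores. Amigo1, an adhesion protein that accompanies Kcnb channels, had r of 0.648 (rho 0.643), and Aqp4, the water channel of astrocyte endfeet, had -0.564 (rho -0.546). With the striatal score the chloride-loading cotransporter Slc12a2 had r of -0.5 (rho -0.483) and Amigo1 0.434 (rho 0.434). With the myelin score Lrrc55, an auxiliary subunit of the Kcnma1 channel, had -0.492 (rho -0.471), and with the astrocyte score the glial pump subunit Atp1b2 had 0.386 (rho 0.388). Amigo1 also went with the activity score at 0.359, and Slc12a2 stood opposite at -0.334.

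Of 22 listed pairs of subunits or partners, 8 had both genes on the array, and 5 of these had a permutation p under 0.05. The bar is low, since 47.8% of all pairs of named genes reached the absolute r of 0.141 of the weakest of the 5. The closest was Kcnd2 with its calcium-binding partner Kcnip4, where r was 0.563 in the 59 low Kcnip4 mice and 0.401 in the 233 high ones. Within batches A, B and C r of this pair was 0.653, 0.616 and 0.237. Kcnma1 and its accessory subunit Kcnmb4 went opposite ways, with r of -0.432 and rho of -0.367 (permutation p = 1e-05, the smallest possible, for both; 292 mice), though r was -0.627 and -0.629 in batches A and B and 0.142 in batch C. The tandem-pore genes Kcnk1 and Kcnk2 had r of 0.18 (p = 0.00171; rho 0.21, p = 0.00023), with 0.116 in batch A, 0.0654 in B and 0.472 in C. The astrocyte genes Kcnj10 and Aqp4 had r of 0.177 (p = 0.00231; rho 0.158, p = 0.00691), with 0.19, 0.186 and 0.171 within batches. The ATP-sensitive channel's pore Kcnj8 and its sulphonylurea receptor Abcc9 had r of 0.141 (p = 0.0157; rho 0.12, p = 0.0404), with -0.17 in batch A. The G protein-gated subunits did not pass, with r of 0.0696 for Kcnj3 and Kcnj6 (p = 0.229) and 0.0973 for Kcnj3 and Kcnj9 (p = 0.0967). Kcna1 and the secreted synaptic protein gene Lgi1 had -0.0155 (p = 0.794). Without the 2 farthest mice, the values called above were 0.515 for Kcnd2 with Kcnip4 over all mice, -0.438 for Kcnma1 with Kcnmb4, 0.174 for Kcnk1 with Kcnk2, 0.154 for Kcnj10 with Aqp4 and 0.142 for Kcnj8 with Abcc9.

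Over all 2278 pairs of potassium channel genes the median r was 0.0319. An r of at least 0.3 was found in 9.39% of pairs and one of at most -0.3 in 5.22%, against 9.33% and 8.01% of pairs of other named genes. None of the 78 pairs within Kcnj and none of the 45 within Kcnk reached -0.3. The strongest pairs, named here for their size and with no test, joined different families. The modifier subunit Kcng1 went with Kcnk7 at r of 0.795 (rho 0.781) and with the modifier Kcns1 at 0.764 (rho 0.768), and both held in every batch at 0.715 or more. Kcnd2 went with the beta subunit Kcnab1 at 0.754 (rho 0.704), and Kcna5 with the modifier Kcng2 at 0.743 (rho 0.741). Kcnh3 went with Kcng2 at 0.719 and with Kcnmb4 at 0.703. Kcnip4 and Kcnab2, both with 2 levels, ran in opposite directions, with r of -0.639 in the 224 low Kcnab2 mice and -0.424 in the 68 high ones. In batch C alone r was -0.32.

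Both probes of Kcnma1 were on the array and they disagreed. The probe of larger SD (0.0491), used throughout, and the probe of smaller SD (0.0309) had r of -0.515 and rho of -0.593 (permutation p = 1e-05, the smallest possible, for both; 292 mice), and r came to -0.788 in A, -0.562 in B and -0.258 in C. Without the 2 farthest mice r was -0.66. The direction of every Kcnma1 result above is therefore that of 1 probe. The larger one followed Kcnip4, with r of 0.716 in its 59 low mice and 0.674 in its 233 high mice. In batch C alone r was 0.413.

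**Figure D5:**
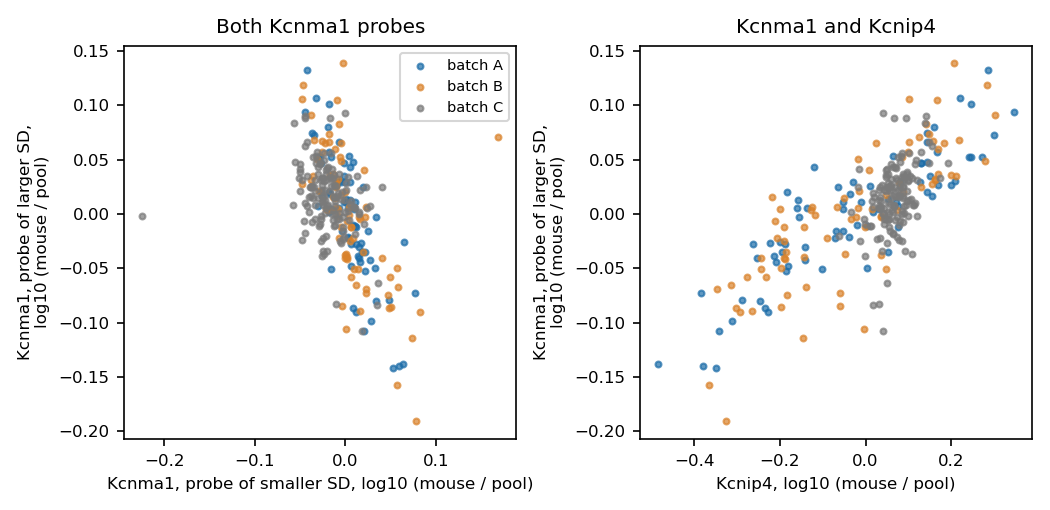
Each point is 1 mouse, coloured by batch, with log10 ratios of mouse over pool on both axes: the left panel sets the Kcnma1 probe of larger SD against the probe of smaller SD, and the right panel against Kcnip4. The 2 probes run in opposite directions (r = -0.515), and the larger one increases with Kcnip4, mostly over mice of batches A and B.

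The genes whose ratios ran most like those of the channels with discrete levels kept the sign of r inside each level. Levels were fitted before values were centred within batches. In the level that holds most or all of batch C, r can thus still carry an offset between batches. Kcnip4 was followed by Vsnl1, a neuronal calcium sensor gene, with r of 0.52 in the 59 low mice and 0.796 in the 233 high mice. Tuba4a, a tubulin gene, had 0.577 and 0.765 in the same mice, and Cacng3, an auxiliary gene of glutamate receptors, had 0.566 and 0.747. In batch C, where no mouse was low, these 3 genes had r of 0.499, 0.23 and 0.16 with Kcnip4. Kcnab2 was followed by the nuclear RNA-binding gene Nono with -0.735 in its 224 low mice and -0.551 in its 68 high mice, by the RNA-editing enzyme gene Adarb1 with 0.662 and 0.728 and by Thumpd3 with -0.695 and -0.671. Kcna7 was followed by Rnase10, a ribonuclease family gene, with 0.865 in its 268 low mice and 0.804 in its 24 high mice, by Gm364 with 0.658 and 0.58 and by Ell3 with 0.616 and 0.677. In batch C alone Nono, Adarb1 and Thumpd3 had r of -0.526, 0.486 and -0.542 with Kcnab2. Rnase10, Gm364 and Ell3 had 0.741, 0.408 and 0.573 with Kcna7 there. All of these genes were ranked by r over 292 mice, so it carries no test.

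Among the widest genes without levels, Kcnj14 was followed by 3 homeobox genes, Hoxb2 with r of 0.549 (rho 0.553), Hoxd4 with 0.546 (rho 0.56) and Evx1 with 0.541 (rho 0.532). All 3 had their highest r in batch C, at 0.648, 0.619 and 0.618, and between 0.294 and 0.501 in batches A and B. Without the 2 farthest mice r was 0.546, 0.555 and 0.534. For Kcnn4 and Kcne1, whose spread came from few mice, the absolute r with each partner was lower without those mice. Kcnn4 had r of 0.926 with Nkx2-1, 0.921 with Mucl2 and 0.908 with Nt5c1b, but 0.488, 0.354 and 0.377 without its 2 farthest mice and 0.416, 0.288 and 0.309 without the 4 widest arrays. Kcne1 had r of -0.611 with Pabpc4 (rho 0.0521), which was 0.0133 without its 2 farthest mice, while Hook1 stood at 0.624 with them and 0.362 without them and Klra4 at 0.578 and 0.447. Batches A and B hold neither of these 2 mice. There Kcne1 had r of 0.49 and 0.568 with Klra4, 0.272 and 0.422 with Hook1 and -0.0597 and -0.0175 with Pabpc4.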

How the data were processed

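Brain RNA of 292 mice was measured on 292 arrays with 2 colours, 1 mouse (Cy3) against a common pool (Cy5) per array. The authors' deposited values were read here as log10 of mouse over pool. Their base and direction, the background correction and the normalization are not stated in the labels or the file. A pool of equal portions would give a gene a mean linear ratio near 1, and that of Eif2s3y was 0.79 in base 10, 0.738 in base 2, 0.709 in base e and 21.6 in base 10 with the sign turned. No dye was swapped per the labels, so a dye effect would stay in each ratio. Depth has no meaning for these arrays, and their number limits the precision. Probes with over 5% missing values were left out (25 of 23574), 252 further gaps took the mean of the probe, and 690 values equalled -2 or 2, the limits of the table. Gene names came from the platform annotation, updated through RefSeq; 12645 of 13695 annotated probes matched, Kcnb2 kept the platform's name, and 48 probes with several genes were named for none.

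The 3 batches were found from shared sets of missing probes (19 in A, 17 in B, none in C). No label names a batch, but A and B were told apart by the form of the sample description. It was form 1 in A and form 2 in B, and batch C had the form of A. Litters were not given in the sources used here, so each mouse counted once, and p-values measure the spread between mice. Slopes on scores, batch means and means against the pool were fitted with limma 3.58.1 in R 4.3.3 over 23549 probes with Benjamini-Hochberg adjustment, and levels with mclust 6.1.1 (equal variance, up to 3 levels). Correlations and permutation tests (100000, two-sided, over mice) used batch-centred values in numpy 2.4.6. Both fits were tested on simulated data with known answers.

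The genes, marker lists, pairs and thresholds were chosen with earlier results of these data known. The text names the genes with the 10 largest and 5 smallest SDs, the 4 most positive and 4 most negative called with each score, those with levels, the 5 largest batch shifts, all pairs, and the 3 genes most like each of the 5 widest genes and of the genes with levels. Called genes beyond the first 4, and Kcnj9 and Kcnk1 for likeness, were named after their values were seen. Alternatives were batch handling, array scaling, ranks, a principal component, thresholds and each batch alone; leaving out the 4 widest arrays was chosen after seeing the data.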

Additional observations from a re-analysis of the deposited data

How the results depend on the processing

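Of 410 values of 41 named slopes on marker scores under 10 alternatives, 319 kept direction and call, 85 kept the direction without the call, and 6 turned. The alternative with no minimum r only loosened the rule, so its 41 kept calls were fixed in advance. Direction and call were kept by 17 of 41 in batch C alone, 18 by ranks and 22 with the first principal component. Under each of the remaining alternatives 34 to 40 of 41 kept them. Turned with the first principal component as a covariate was Kcnab1 with the myelin and endothelial scores (-0.00803 and -0.0128). By ranks within batches Kcnh3 turned with the endothelial score (0.0285), though its rho was -0.267. In batch C, Kcnh3 (0.107) and Kcng2 (0.0506) turned with the endothelial score and Kcnip4 with the mural score (-0.0963). For a single batch the score was rebuilt from markers standardised in that batch, so these r differ from those given with the results. With the score of all mice, Kcnip4 (-0.0327) and Kcnab2 (0.0429) also turned in batch C with the endothelial score. Among the pairs, Kcnj8 with Abcc9 turned in batch A (-0.17) and Kcnma1 with Kcnmb4 in batch C (0.142). The cause was not tested. No value turned under another scaling of the arrays, with probes averaged or without the 4 widest arrays.

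Counts of called genes moved by over 1.5 times as follows. Without the minimum r there were 28 genes for activity, 8 cerebellar, 31 striatal, 44 cortical and hippocampal, 1 pituitary, 29 myelin, 22 astrocyte, 32 microglia, 35 endothelial and 36 mural, since this rule asks for less. Without the batch term there were 20 for activity, 29 cortical and hippocampal, 18 myelin and 8 astrocyte. With arrays scaled to equal spread there were 2 for activity, 3 cerebellar, 5 striatal and 5 microglia. By ranks within batches, which weigh batch C most, there were 1 for activity, 3 cerebellar, 9 cortical and hippocampal, 3 microglia, 3 endothelial and 1 mural. With the first principal component there were 5 myelin, 5 endothelial and 0 mural. Batch A alone gave 1 for activity, 21 myelin, 13 microglia, 19 endothelial and 22 mural. Batch B alone gave 0 cerebellar, 14 myelin, 16 astrocyte, 20 microglia, 17 endothelial and 14 mural. Batch C alone gave 5 cerebellar, 7 cortical and hippocampal, 8 astrocyte, 3 microglia, 4 endothelial and 3 mural. Discrete levels numbered 11 at 2 SDs, 0 at 4 SDs, 1 with centred values, 1 with unequal variances, 0 in batch A and 1 in batch B. Of Kcnip4, Kcnab2 and Kcna7, only Kcnip4 was among these calls with centred values, with 3 levels, and none with unequal variances or in a single batch. The count off the pool was 41 without the fold minimum and 5 in batch C, that between batches 44 without the fold minimum, and that of pairs 3 in batch A. No paired analysis was possible because all mice form 1 group.

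The base of the logarithm is not stated, so every fold is conditional on base 10. Sex, cross direction and dissection were not given per mouse, and their part in any result was not tested.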
